A study of Mus musculus with 12 samples.

Results

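The genes described here were high at day 4 of doxycycline (Dox) against both untreated cells and day 6, in AML246 cells, a mouse acute myeloid leukemia. They were chosen on levels in CPM, read counts scaled to a common library size, with TMM factors that allow for differences in library composition. A gene was taken when its day 4 mean was at least 10 CPM, at least 2 times the untreated mean and at least 2 times the day 6 mean, with all 3 day 4 libraries above all 3 untreated and all 3 day 6 libraries. Of the 27179 genes measured, 100 met these criteria, and 98 were kept after Klf4 and H2-DMa were set aside by name. Of 6 other names set aside in advance (Epx, Prg2, Prg3, Ear1, Ear6 and Alox15) none met the criteria. All 98 genes were among the 12057 with enough counts to be tested. Of the 98 genes 94 are protein coding, 3 are long noncoding RNAs (Zeb2os, AI504432 and Gm15987) and 1 has an identifier (665825) without a name in the annotation. Since untreated, day 4 and day 6 values chose the genes, their high day 4 level is a description and carries no test.

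AML246 cells are cytogenetically normal, lack p53 and express a GFP-linked hairpin (shPU.1) that targets PU.1, on a C57BL/6 background, and all 4 groups share these features. They were sorted from the marrow of leukemic recipient mice that were untreated (GFPhigh gate) or had received Dox for 2 days (GFPhigh-mid), 4 days (GFPmid) or 6 days (GFPlow), with 3 libraries a group. Dox turns the hairpin off, so the leukemia cells' own PU.1 returns in steps. The gate changed with the day, so gate and time cannot be told apart, and no group received Dox without the hairpin. All libraries carry 1 leukemia name, and no age of the mice was found in the labels. The titles call the replicates technical and the design speaks of mice in triplicate, so p-values reflect spread among these libraries that could be technical.

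PU.1, encoded by Spi1, is an ETS family transcription factor that binds purine-rich DNA and is needed to form monocytes, neutrophils and B cells. Its dose matters, since a low level holds myeloid precursors in an immature state and a high level favours macrophage over neutrophil fate. During myeloid maturation many genes pass through a phase of high expression and are turned down again as a cell takes on its final form.

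Spi1 stood at 54.2, 67.5 and 65.9 CPM untreated, 107, 98.8 and 123 on day 2, 244, 267 and 269 on day 4 and 497, 439 and 438 on day 6. It was higher at each later day with no overlap between groups, so it did not share the lower day 6 level of the 98 genes. Trp53, the deleted gene, was listed at 42.8 CPM in untreated and 15.7 at day 6 (means), and the tables do not tell which part of the gene the reads came from. The libraries held 4918920 to 7356166 counts. Day 6 replicate 2 stood apart from the other day 6 libraries. Its counts differed from those of replicates 1 and 3 by 44.3 and 38.6 times the counting variance, against 4.77 between replicates 1 and 3 and 2.62 to 10.5 within the other groups. Its summed level of 42 mature neutrophil genes was 106549 CPM, against 201113 and 179328 in replicates 1 and 3. Untreated libraries held 3180 to 4521 CPM of these genes, those of day 2 held 3351 to 5578 and those of day 4 held 7628 to 12646. Of the neutrophil genes 41 were tested, and 40 rose and 1 fell at day 6 against untreated (edgeR). Over all tested genes 35.0% rose and 32.9% fell, and Cxcr1 was at 0 in all libraries. Both neutrophil counts were the same without day 6 replicate 2. For the 98 genes, the number that met the criteria and the day 6 counts, medians and order against day 2 are also given without replicate 2.

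The median of the 98 group means was 8.97 CPM in untreated cells, 16.5 at day 2, 48.5 at day 4 and 18.8 at day 6. Day 4 means ran from 10.7 CPM for Fkbp1b to 1170.3 for Ahnak. The day 4 mean was 2.00 to 143 times the untreated mean (median 3.85) and 2.00 to 15.5 times the day 6 mean (median 2.68). Summed over the 98 genes, the level lay between 2139 and 3175 CPM untreated, between 3351 and 4656 on day 2, between 9544 and 12260 on day 4 and between 2747 and 5990 on day 6. In bulk samples fewer cells that express a gene and less of its RNA per cell cannot be told apart. The label fits the group means of 97 of the 98 genes, which were also higher at day 4 than at day 2. The exception was Ccl24, whose mean was 12.5 CPM at day 2 and 11.6 at day 4. In 93 of the 98 genes all 3 day 4 libraries were above all 3 day 2 libraries, a pattern that 25.2% of all tested genes showed, and the day 4 libraries had been chosen high. The 5 others were Apba1, Sfrp1, Gprc5c, Bex6 and Ccl24.

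**Figure D1:**
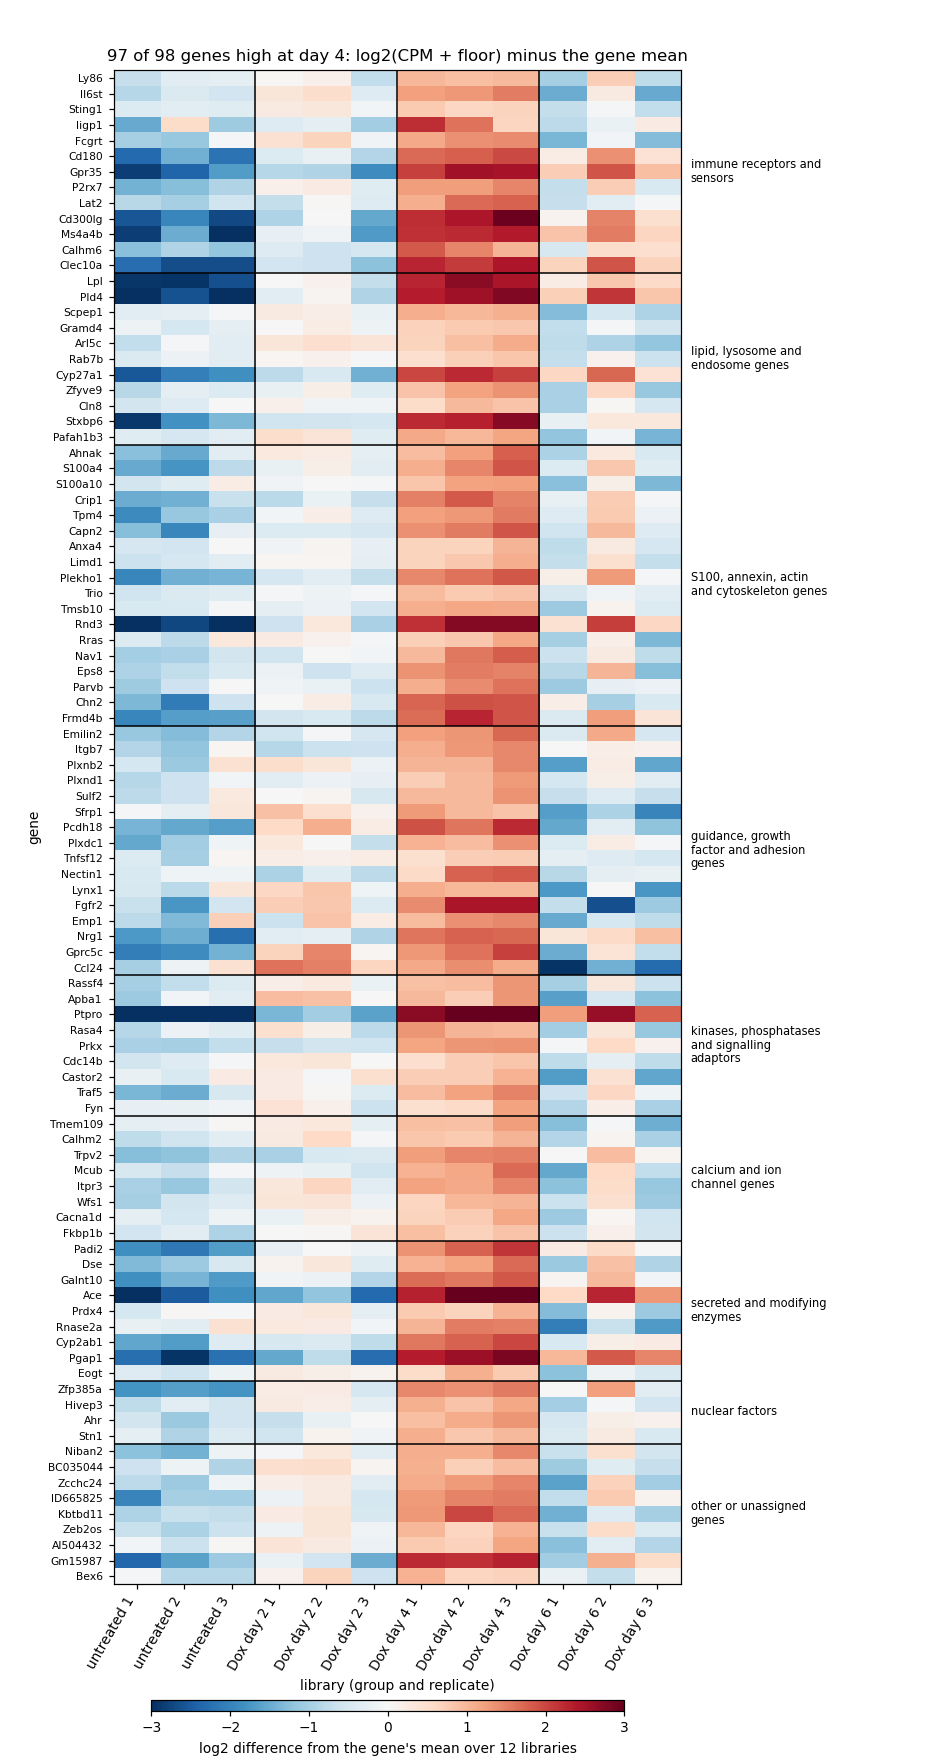
Level of 97 of the 98 genes (rows, grouped by role) in each of the 12 libraries (columns, in 4 groups of 3), shown as log2 of CPM plus 0.466 (3 counts of a mean library) minus the gene's mean over all libraries, with colours cut at -3 and 3. The day 4 columns are higher than the untreated and day 6 ones, as the choice of genes sets, and among the day 6 columns replicate 2 lies closest to day 4.

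The criteria cut through a continuous range. Just inside the day 4 minimum stood Fkbp1b (10.7 CPM), Ccl24 (11.6) and Cacna1d (12.2), and just outside Apbb1 (9.30), Itga8 (8.84) and Dnah2 (8.84). Ratios to untreated were 2.00 for Castor2, 2.02 for Prdx4 and 2.02 for Rab7b inside, and 1.97 for Ly9, 1.89 for Thbd and 1.89 for Cdc42bpb outside. Ratios of day 4 to day 6 were 2.00 for Ptpro, 2.00 for Zfp385a and 2.01 for Zeb2os inside, and just under 2.00 for Fbxw4, 1.96 for Cyria and 1.95 for Prcp outside. The numbers of genes that missed the criteria by a single threshold were 126 for the day 4 minimum, 44 for the ratio to untreated and 71 for the ratio to day 6. A further 24 genes met all 3 thresholds on the means but had overlapping libraries. Without day 6 replicate 2 the same criteria took 187 genes, of which 97 were among the 98.

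Promoter sequence was not used to choose the genes. RefSeq promoter windows on GRCm38.p6 (250 bases before to 50 after a start) were matched by gene identifier for 69 of the 98 genes, 94 windows in all. The motif GAGGAAG, a core of PU.1 and other ETS binding sites, was searched on both strands. It was present in 20 of the 94 windows (21.3%), against 13.6% of all 32851 windows of that length. By gene, 18 of the 69 (26.1%) had at least 1 window with the motif, against 16.2% of the 9330 other tested genes with a window. Windows with the motif are printed for 6 of these genes. These 6 were called higher at day 2, or were on a gene list and called higher at day 6, as described further on. Capitals mark GAGGAAG or its reverse complement CTTCCTC, and each sequence runs 5′ to 3′ on the gene's own strand.
Ace (chr11:105967698-105967997, plus strand): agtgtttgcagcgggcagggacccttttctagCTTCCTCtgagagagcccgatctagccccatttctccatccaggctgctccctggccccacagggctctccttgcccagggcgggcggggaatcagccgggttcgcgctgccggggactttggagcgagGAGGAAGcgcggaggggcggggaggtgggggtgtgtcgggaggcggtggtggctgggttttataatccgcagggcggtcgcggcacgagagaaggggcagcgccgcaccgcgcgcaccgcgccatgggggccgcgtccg
Gpr35 (chr1:92978653-92978952, plus strand): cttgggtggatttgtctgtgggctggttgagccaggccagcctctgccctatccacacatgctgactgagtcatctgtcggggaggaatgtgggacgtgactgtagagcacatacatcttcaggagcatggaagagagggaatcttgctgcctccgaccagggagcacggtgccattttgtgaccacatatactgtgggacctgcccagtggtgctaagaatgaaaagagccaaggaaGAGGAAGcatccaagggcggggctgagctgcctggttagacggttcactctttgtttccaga
Itgb7 (chr15:102231886-102232185, minus strand): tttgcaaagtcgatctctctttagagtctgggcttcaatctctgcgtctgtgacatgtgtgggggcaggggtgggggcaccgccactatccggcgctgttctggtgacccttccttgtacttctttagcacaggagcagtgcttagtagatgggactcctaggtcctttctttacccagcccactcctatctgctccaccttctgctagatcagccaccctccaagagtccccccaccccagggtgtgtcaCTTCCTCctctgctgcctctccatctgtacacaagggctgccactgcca
Pld4 (chr12:112760405-112760704, plus strand): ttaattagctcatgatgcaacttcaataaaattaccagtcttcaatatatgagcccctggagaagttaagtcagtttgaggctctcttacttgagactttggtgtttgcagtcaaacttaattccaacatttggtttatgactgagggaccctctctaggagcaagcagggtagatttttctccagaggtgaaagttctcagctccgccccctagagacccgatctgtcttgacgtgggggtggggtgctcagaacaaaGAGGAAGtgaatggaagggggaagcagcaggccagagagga
S100a4 (chr3:90603520-90603819, plus strand): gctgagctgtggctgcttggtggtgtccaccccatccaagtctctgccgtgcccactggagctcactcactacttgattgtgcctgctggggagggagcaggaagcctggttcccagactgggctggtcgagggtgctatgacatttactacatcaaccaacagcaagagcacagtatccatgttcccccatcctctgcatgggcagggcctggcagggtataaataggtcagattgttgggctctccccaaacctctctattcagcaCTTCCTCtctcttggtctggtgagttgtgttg
Zfp385a (chr15:103340037-103340336, minus strand): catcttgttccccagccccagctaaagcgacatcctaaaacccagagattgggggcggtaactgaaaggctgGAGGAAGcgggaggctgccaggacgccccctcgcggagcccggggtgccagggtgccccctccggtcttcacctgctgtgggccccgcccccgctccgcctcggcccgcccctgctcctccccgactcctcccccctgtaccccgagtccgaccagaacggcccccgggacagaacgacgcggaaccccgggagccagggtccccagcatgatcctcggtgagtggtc
The Ace window holds the motif on both strands, and the 5 others hold it in a single place. The other motifs were searched on both strands too. TATAAA was in 11.7% of the 94 windows and 13.6% of all windows, and by gene in 15.9% of the 69 against 8.49% of the other tested genes. The AP-1 motif TGANTCA was in 7.45% and 7.81% of windows, and by gene in 10.1% against 6.10%. By gene the shares of these motifs and of GAGGAAG were thus all above those of the other tested genes, and by window that of GAGGAAG alone of these was above that of all windows, with no test run. CCAAT was in 37.2% and 37.4% of windows and by gene in 44.9% against 43.5%. An IRF motif was in 3.19% and 3.44% of windows (by gene 4.35% against 3.89%) and a composite ETS and IRF motif in 3.19% and 2.72% (by gene 4.35% against 2.86%). The C/EBP motif TTGCNNAAT was in 0 of the 94 windows and in 2.40% of all windows. The composite motif shares the core GGAA with GAGGAAG and a GAAA repeat with the IRF motif. A match is a run of letters and was not tested as a binding site.

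At day 2, 9 of the 98 genes were higher than in untreated cells and 0 were lower, by edgeR's quasi-likelihood test with Benjamini-Hochberg adjustment over 12057 genes. Over all tested genes 1.05% were higher and 0.406% lower. At an unadjusted p under 0.05 the numbers were 47 (7.88% of all tested genes) and 0 (6.44%), and DESeq2 called 28 higher (2.33% of all tested genes) and 0 lower (1.19%). The 9 genes were Lpl, Pld4, Padi2, Arl5c, Zfp385a, Pcdh18, Clec10a, Nrg1 and Gprc5c, which cover lipid handling, protein modification, cell contact, a nuclear protein and a lectin. The day 2 libraries were not used to choose the genes, but the untreated libraries were. The median log2 fold change at day 2 was 0.71 over the 98 genes and -0.00 over all tested genes, and 94 of the 98 were above 0. All 3 day 2 libraries were above all 3 untreated libraries in 51 of the 98, against 12.2% of tested genes. Another 678 genes passed the same criteria against untreated at day 4 without meeting those against day 6, and of these 98 (14.5%) were higher at day 2, with a median of 0.45. In both sets of day 4 genes the share called at day 2 was above the background, and the difference between the sets was not tested.

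The day 2 count depended on single libraries. It was 3 without untreated replicate 1, 4 without untreated replicate 3, 3 without day 2 replicate 1, 3 without day 2 replicate 2, 5 without day 4 replicate 2, 5 without day 4 replicate 3 and 32 without day 6 replicate 2 (3.09% of tested genes, with 0 lower against 1.84%). For the omissions that gave 3 to 5 calls, no share of all tested genes is given. Whether the lower counts were particular to the genes described here or shared by all tested genes was therefore not tested. A fit of only the untreated and day 2 libraries called 18 higher (2.08% of its tested genes) and 0 lower (1.48%). Lpl, Pcdh18 and Padi2 were called whichever of the 12 libraries was omitted. The remaining 6 were not called under 4 (Pld4) to 9 (Clec10a and Zfp385a) of the 12 omissions, with a highest adjusted p of 0.186 (Arl5c, edgeR).

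**Figure D2:**
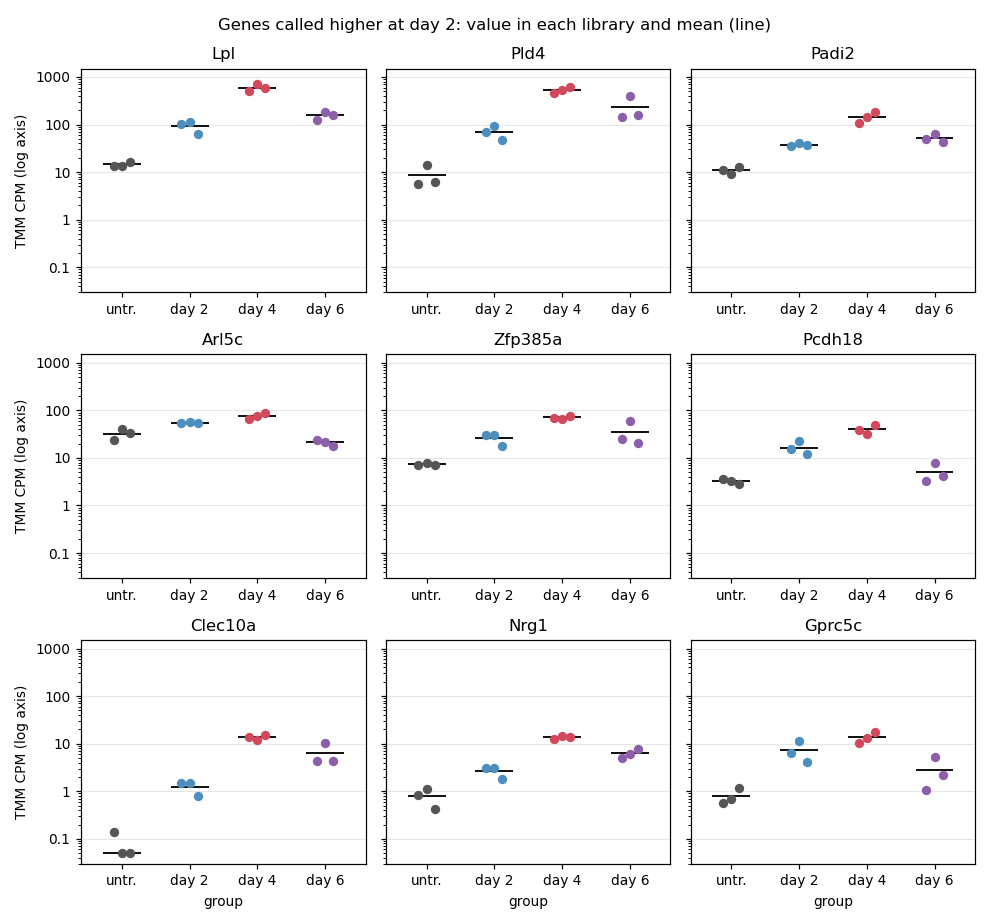
Level in CPM (log axis) of the 9 genes that were higher at day 2, in each library by group, with points for libraries and bars for group means, and 0 drawn at 0.05. All 9 show day 2 libraries clear of the untreated ones, and Arl5c is the 1 of the 9 whose day 6 libraries lie below all untreated libraries.

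At day 6, 37 of the 98 genes were higher than in untreated cells, 5 were lower and 56 were not called, by the same edgeR test. Over all tested genes 35.0% were higher and 32.9% lower. The share higher (37.8% of the 98) was thus near the background, and the share lower (5.10%) was below it. Both groups had been used to choose the genes, which sets them below day 4 but sets no order between them. The median log2 fold change at day 6 was 0.37 over the 98 genes and -0.00 over all tested genes. All 3 day 6 libraries were above all untreated libraries in 30 of the 98 genes (34.3% of tested genes) and below them in 5 (33.9%). Of the 9 genes higher at day 2, 7 were also higher at day 6, 1 was lower (Arl5c) and 1 was not called (Pcdh18). The comparisons of day 2 and day 6 share the untreated libraries.

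Without day 6 replicate 2 the median log2 fold change of the 98 genes at day 6 was 0.012 (-0.01 over all tested genes), with 49 above and 49 below 0. Both remaining day 6 libraries were above all untreated ones in 31 of the 98 genes (40.2% of tested genes) and below them in 30 (39.9%). The number below untreated thus depended on replicate 2, but without it the share was still under that of all tested genes. Without that library there were 31 genes called higher (36.1% of tested genes) and 19 lower (34.6%). With library totals in place of TMM the numbers were 26 and 18, with no share of all tested genes given. That scaling moves the median log2 change of all genes by -0.50. Whether these 2 numbers were particular to the 98 genes was therefore not tested. The genes Gprc5c, Traf5, Capn2, Zeb2os, Ahr and Itgb7 lost their day 6 call without replicate 2, with adjusted p from 0.0565 (Ahr) to 0.371 (Zeb2os) by edgeR. With Chn2 these genes lost the call under 3 to 9 of the 12 omissions, while the other 30 higher and the 5 lower genes were called under each omission.

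**Figure D3:**
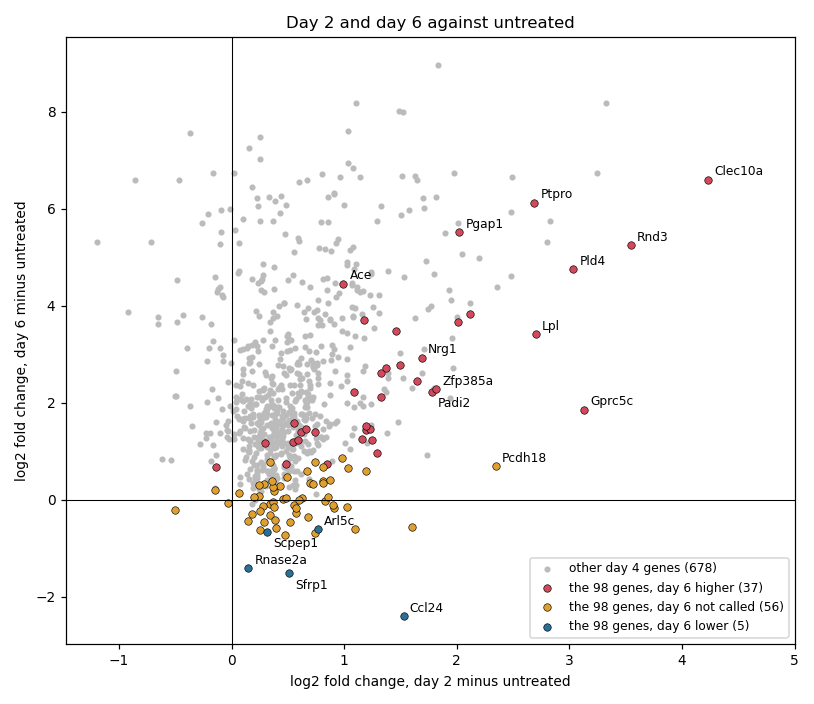
Log2 fold change against untreated at day 2 (x axis) and day 6 (y axis) for each of the 98 genes, coloured by the edgeR call at day 6, and for the 678 other day 4 genes in grey, which the day 6 criteria themselves set apart from the 98. Both axes share the untreated libraries, and most genes lie right of 0 at day 2 while 65 lie above and 33 below 0 at day 6.

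In what follows, a gene or list said to rise or fall at a day did so against untreated cells. Against day 4, all 98 genes had lower means at day 6, as their choice sets. Receptors and sensors of immune signals were 13 of the 98 genes, of which 1 rose at day 2 (Clec10a), 7 rose at day 6 and 0 fell. Over all tested genes 1.05% rose at day 2, and 35.0% rose and 32.9% fell at day 6. Clec10a, a C-type lectin that binds galactose-type sugars on macrophages and dendritic cells, stood at 0.142, 0 and 0 CPM untreated, 1.52, 1.46 and 0.786 on day 2, 13.95, 12.1 and 15.6 on day 4 and 4.27, 10.4 and 4.30 on day 6. Its untreated libraries held 1 read in all, so no fold change is given against them, and the day 4 libraries were the highest with no overlap. The adjusted p was 0.0427 at day 2 and 4.33e-06 at day 6 (edgeR). Cd180, a Toll-like receptor relative, and Ly86, the secreted partner that Cd180 needs at the surface, were both among the 98. Cd180 stood at 5.81, 11.1 and 6.32 CPM untreated, 23.2, 26.5 and 16.6 on day 2, 103, 109 and 125 on day 4 and 36.3, 80.8 and 41.97 on day 6, and all day 6 libraries remained above all untreated ones (log2 fold change 2.78 ± 0.34, adjusted p = 2.68e-05, edgeR). Ly86 stood at 66.6, 85.1 and 88.2 CPM untreated, 109.5, 120.4 and 64.5 on day 2, 216, 202 and 210.0 on day 4 and 54.0, 181 and 62.9 on day 6, with day 6 replicates 1 and 3 below all untreated libraries and replicate 2 above them (log2 fold change 0.32 ± 0.40, adjusted p = 0.497, edgeR). Both partners were highest at day 4, which the choice of genes sets against untreated and day 6. The call at day 6 was made for Cd180 only, with the difference between them not tested.

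Gpr35, a G protein-coupled receptor for tryptophan metabolites and a chemokine, gave 1.56, 2.23 and 4.02 CPM untreated, 7.44, 7.14 and 3.41 on day 2, 58.5, 81.1 and 78.7 on day 4 and 23.2, 52.6 and 26.2 on day 6. Most of the difference appeared after day 2, when the mean was 4.84% of the way from the untreated to the day 4 mean, and Gpr35 was still above untreated at day 6 (log2 fold change 3.71 ± 0.43, adjusted p = 1.56e-05, edgeR). P2rx7, an ATP-gated channel that feeds the inflammasome, stood at 9.08, 10.02 and 13.1 CPM untreated, 27.9, 29.5 and 19.4 on day 2, 60.02, 59.6 and 70.2 on day 4 and 14.9, 42.1 and 18.2 on day 6. Its day 6 libraries lay above the untreated ones (log2 fold change 1.25 ± 0.35, adjusted p = 0.00735, edgeR). Cd300lg, a CD300 family receptor, and Ms4a4b, a membrane protein of the Ms4a family, were both under 2 CPM in the untreated mean (1.03 and 1.17) and at 45.2 ± 12.2 and 39.7 ± 3.04 CPM at day 4 (SD, n = 3). Both rose at day 6, with log2 fold changes of 3.67 ± 0.56 and 3.83 ± 0.55 (edgeR adjusted p = 0.000126 and 8.32e-05). Ms4a4b has close relatives in a gene cluster, so reads may be shared with them. Calhm6, a calcium channel family member induced in macrophages, went from 3.67 ± 0.562 untreated to 24.5 ± 6.80 at day 4 and 10.2 ± 3.62 CPM at day 6 (log2 fold change 1.47 ± 0.30, adjusted p = 0.000741, edgeR).

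The remaining receptors and sensors were not called at day 6. Il6st, the gp130 subunit shared by receptors of the interleukin 6 family, stood at 33.8, 44.8 and 41.1 CPM untreated, 78.7, 87.9 and 46.8 on day 2, 145, 151 and 178 on day 4 and 21.3, 74.3 and 21.1 on day 6. Day 6 replicates 1 and 3 lay below all untreated libraries and replicate 2 above them, and the day 6 change was not called (adjusted p = 0.984, edgeR). Fcgrt, the heavy chain of the receptor that recycles immunoglobulin G, stood at 24.4, 22.1 and 47.7 CPM untreated, 67.7, 78.7 and 45.5 on day 2, 109, 127 and 132 on day 4 and 18.6, 46.0 and 19.5 on day 6, again with no call at day 6 (adjusted p = 0.765). Sting1, the adaptor for cytosolic DNA sensing, had means of 69.3, 102, 145 and 64.4 CPM in untreated, day 2, day 4 and day 6 cells. Lat2, an adaptor below Fc and immunoreceptors, had 9.40, 13.3, 49.8 and 13.1 CPM in the same order. Iigp1, an interferon-inducible GTPase that attacks pathogen vacuoles, stood at 15.2, 65.0 and 20.98 CPM untreated, 33.7, 36.8 and 21.4 on day 2, 207, 139 and 69.1 on day 4 and 25.6, 38.7 and 52.7 on day 6. Of 61 interferon response genes in a list, 42 passed the criteria against untreated at day 4, and Iigp1 was the single one that also met those against day 6. Over all genes 778 passed the first and 100 of them also met the second. Summed over that list, the day 6 libraries held 16410 to 25003 CPM with replicate 2 the highest, against 2949 to 5759 in untreated libraries.

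Genes of lipids, lysosomes and endosomes were 12 of the 98, of which 3 rose at day 2 (1.05% of all tested genes), 4 rose at day 6 (35.0%) and 2 fell at day 6 (32.9%). Lpl, the lipoprotein lipase that releases fatty acids from circulating lipoproteins (GRCm38, chromosome 8, 68880555 to 68906932), stood at 13.6, 13.4 and 16.7 CPM untreated, 105, 116 and 64.5 on day 2, 517, 696 and 578 on day 4 and 123, 185 and 156 on day 6. No 2 neighbouring days overlapped, and both changes were called, on day 2 (log2 fold change 2.70 ± 0.24, adjusted p = 0.00036) and later at day 6 (log2 fold change 3.41 ± 0.24, adjusted p = 2.09e-07, edgeR). Pld4, an endolysosomal nuclease that trims single-stranded nucleic acid in phagocytes (chromosome 12, 112760446 to 112768986), stood at 5.53, 13.9 and 6.18 CPM untreated, 71.1, 93.4 and 47.3 on day 2, 457, 519.6 and 606 on day 4 and 144, 390.3 and 159 on day 6. It rose already on day 2 (log2 fold change 3.03 ± 0.49, adjusted p = 0.017) and was still called as higher at day 6 (log2 fold change 4.75 ± 0.50, adjusted p = 1.3e-05, edgeR). Cyp27a1, the sterol hydroxylase that makes an oxysterol from cholesterol, was at 1.70 ± 0.519 CPM untreated, 4.81 ± 1.70 at day 2, 39.8 ± 3.36 at day 4 and 19.0 ± 10.1 at day 6 (SD, n = 3), a rise at day 6 (log2 fold change 3.48 ± 0.41, adjusted p = 1.26e-05, edgeR). Stxbp6, a regulator of membrane fusion, showed the same order with 1.04, 3.30, 29.8 and 5.71 CPM and rose at day 6 (log2 fold change 2.45 ± 0.38, adjusted p = 9.34e-05, edgeR).

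Scpep1, a retinoid-inducible serine carboxypeptidase of lysosomes, went the other way at day 6. Its libraries held 62.1, 63.8 and 74.8 CPM untreated, 93.3, 89.1 and 67.8 on day 2, 165, 154 and 164 on day 4 and 31.3, 54.0 and 40.4 on day 6. All day 6 libraries were below all untreated ones (log2 fold change -0.67 ± 0.17, adjusted p = 0.00437, edgeR). Arl5c, a small GTPase of the ARF family, stood at 24.2, 39.8 and 32.6 CPM untreated, 53.2, 57.8 and 53.6 on day 2, 65.3, 77.1 and 88.7 on day 4 and 24.1, 21.2 and 18.2 on day 6, and it rose early, on day 2 (log2 fold change 0.77 ± 0.17, adjusted p = 0.0421), before it fell at day 6 (log2 fold change -0.61 ± 0.18, adjusted p = 0.00873, edgeR). The endosomal GTPase Rab7b (34.2, 44.1, 69.2 and 33.1 CPM) and the endosomal SMAD anchor Zfyve9 (11.2, 14.6, 35.7 and 13.2) had day 6 means within 1.5 times their untreated means and were not called at either day. Gramd4, Cln8 and Pafah1b3 were not called either, and Pafah1b3, an acetylhydrolase subunit, had a day 4 mean of 14.2 CPM.

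Calcium-binding, annexin and cytoskeletal genes were the largest role, with 18 of the 98, of which 0 rose or fell at day 2, 8 rose at day 6 (35.0% of all tested genes) and 0 fell (32.9%). On a scale that allows comparison between genes (day 4 CPM per kb of gene length), S100a4 (969), S100a10 (619.5) and the LIM protein Crip1 (582) were the most abundant of the 98 genes, against a median of 17.0. S100a4, a calcium-binding protein of motile cells, stood at 58.6, 49.0 and 97.3 CPM untreated, 145, 191 and 133 on day 2, 358, 465 and 628 on day 4 and 127, 296 and 130.0 on day 6. Its day 6 libraries were above all untreated libraries (log2 fold change 1.44 ± 0.38, adjusted p = 0.00609, edgeR), and this call was lost with library totals in place of TMM (adjusted p = 0.051). S100a10, the partner of annexin A2 at the membrane, stood at 127, 145 and 219 CPM untreated, 173, 189 and 180.5 on day 2, 336, 431 and 442 on day 4 and 78.7, 210.2 and 73.6 on day 6, with day 6 replicates 1 and 3 below all untreated libraries and replicate 2 within their range. It was not called at day 6 (adjusted p = 0.307). Ahnak, a very large scaffold protein that binds S100a10, stood at 192, 159.7 and 364 CPM untreated, 556, 529 and 379 on day 2, 871, 1069 and 1570.2 on day 4 and 234, 560.5 and 329.7 on day 6, and its day 6 libraries overlapped the untreated ones (log2 fold change 0.65 ± 0.38, adjusted p = 0.151, edgeR).

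Crip1 held 29.6, 30.5 and 52.4 CPM untreated, 47.8, 72.9 and 52.0 on day 2, 241, 303 and 236 on day 4 and 71.7, 144 and 82.0 on day 6, and it rose at day 6 (log2 fold change 1.41 ± 0.30, adjusted p = 0.00151, edgeR). Tpm4, a tropomyosin that coats actin filaments, gave 23.3, 40.1 and 44.8 CPM untreated, 84.4, 102 and 67.8 on day 2, 209, 221 and 265 on day 4 and 67.4, 153 and 78.1 on day 6 and rose at day 6 too (log2 fold change 1.47 ± 0.32, adjusted p = 0.002, edgeR). Rnd3, a constitutively active small GTP-binding protein that lowers contractility, was near absent from untreated libraries (0.284, 0.835 and 0.431 CPM), stood at 5.16, 10.3 and 3.93 on day 2, 38.9, 58.0 and 58.1 on day 4 and 11.5, 35.8 and 12.9 on day 6. Its day 6 level, though below day 4, was above untreated by one of the largest folds of the 98 (log2 fold change 5.25 ± 0.69, adjusted p = 4.72e-05, edgeR). Plekho1, a regulator of actin capping, and Frmd4b, a scaffold of cell polarity, rose at day 6 by 2.22 ± 0.33 and 2.62 ± 0.42 on the log2 scale (adjusted p = 0.000115 and 0.000124, edgeR). The protease subunit Capn2 and the Rac GTPase-activating protein Chn2 also rose, with adjusted p = 0.0439 and 0.0487, and each lost the call under 9 of the 12 omissions of a library, with a highest adjusted p of 0.342 for Capn2 and 0.232 for Chn2 (edgeR). Tmsb10, which binds actin monomers, stood at 43.6 ± 7.27 CPM untreated, 42.7 ± 5.86 on day 2, 119 ± 3.57 on day 4 and 41.6 ± 16.7 on day 6, with no call at day 2 or day 6. Anxa4, which binds membranes in a calcium-dependent way, the LIM protein Limd1, the guanine nucleotide exchange factor Trio, and Rras, Nav1, Eps8 and Parvb were not called at day 2 or day 6.

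Guidance, growth factor and adhesion genes were 16 of the 98, of which 3 rose at day 2 (against 1.05% of all tested genes), 4 rose at day 6 (35.0%) and 2 fell there (32.9%). Emilin2, an extracellular glycoprotein that monocytes express, stood at 76.4, 68.3 and 92.4 CPM untreated, 112, 164 and 119.8 on day 2, 399, 426 and 557 on day 4 and 126, 375 and 120.1 on day 6. Its day 6 rise was called (log2 fold change 1.39 ± 0.40, adjusted p = 0.00961, edgeR), and without TMM it was not (library totals, adjusted p = 0.0736). Itgb7, the integrin beta 7 chain of gut-homing cells, stood at 73.9, 59.4 and 143 CPM untreated, 74.7, 87.7 and 88.0 on day 2, 291, 336 and 369 on day 4 and 137, 156 and 150.3 on day 6. Its day 2 libraries overlapped the untreated libraries with a lower mean, and its day 6 libraries overlapped them with a higher mean (log2 fold change 0.68 ± 0.25, adjusted p = 0.0316, edgeR), a call that was lost without day 6 replicate 2 (adjusted p = 0.107). Of the semaphorin receptors, Plxnb2 stood at 58.3, 38.1 and 114 CPM untreated, 120.1, 108 and 73.5 on day 2, 169, 169.7 and 228 on day 4 and 26.4, 97.2 and 27.9 on day 6, and Plxnd1 at 42.3, 49.97 and 72.4 CPM untreated, 62.1, 67.7 and 65.3 on day 2, 129, 151 and 189 on day 4 and 53.3, 86.6 and 62.1 on day 6. Neither was called at day 2 or day 6, and Plxnb2 had adjusted p = 0.455 at day 6 (edgeR).

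Pcdh18, a protocadherin of cell contacts, stood at 3.55, 3.20 and 2.87 CPM untreated, 15.6, 22.1 and 11.8 on day 2, 39.5, 31.6 and 49.2 on day 4 and 3.20, 7.88 and 4.10 on day 6. It rose at day 2 (log2 fold change 2.34 ± 0.33, adjusted p = 0.00465, edgeR) and was not called at day 6 (log2 fold change 0.69 ± 0.37, adjusted p = 0.117), where its libraries overlapped the untreated ones. Nrg1, a ligand of ErbB receptors, stood at 0.851, 1.11 and 0.431 CPM untreated, 3.04, 3.11 and 1.84 on day 2, 12.8, 14.3 and 13.9 on day 4 and 5.12, 5.95 and 7.61 on day 6, and it rose at both days (log2 fold change 1.69 ± 0.36, adjusted p = 0.0369 and log2 fold change 2.93 ± 0.33, adjusted p = 6.07e-06, edgeR). Gprc5c, an orphan receptor, stood at 0.567, 0.696 and 1.15 CPM untreated, 6.38, 11.5 and 4.06 on day 2, 10.2, 12.98 and 17.5 on day 4 and 1.07, 5.30 and 2.15 on day 6. Day 2 and day 4 libraries of Gprc5c overlapped, it rose at day 2 (log2 fold change 3.13 ± 0.58, adjusted p = 0.0228, edgeR), and its day 6 call was lost without day 6 replicate 2 (adjusted p = 0.0235 with it and 0.223 without) or without untreated replicate 1 or 2. Fgfr2, a fibroblast growth factor receptor, had the largest ratio of day 4 to the larger of its untreated and day 6 means, 10.8, with 1.99, 0.696 and 2.15 CPM untreated, 6.08, 6.41 and 2.49 on day 2, 10.1, 21.1 and 21.1 on day 4 and 1.92, 0.161 and 1.37 on day 6. Its untreated and day 6 libraries overlapped.

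Sfrp1, a secreted inhibitor of Wnt ligands, and Ccl24, an eosinophil-attracting chemokine, fell at day 6. Sfrp1 stood at 22.8, 19.3 and 30.5 CPM untreated, 43.9, 33.7 and 26.1 on day 2, 57.9, 46.8 and 43.7 on day 4 and 7.25, 12.1 and 5.66 on day 6, with every day 6 library below every untreated one (log2 fold change -1.51 ± 0.29, adjusted p = 0.000514, edgeR). Ccl24 stood at 2.13, 4.18 and 6.61 CPM untreated, 15.6, 14.3 and 7.60 on day 2, 10.95, 13.1 and 10.7 on day 4 and 0.213, 1.45 and 0.586 on day 6. Its day 2 libraries were all above the untreated ones, its day 6 libraries all below (log2 fold change -2.40 ± 0.58, adjusted p = 0.00275, edgeR), and the day 2 change was not called (adjusted p = 0.0857). The TNF family ligand Tnfsf12 (10.9, 16.6, 23.1 and 10.9 CPM), the heparan sulfate sulfatase Sulf2 (44.0, 50.02, 117 and 35.9) and the cell adhesion protein Nectin1 (6.04, 4.31, 20.96 and 5.23) were not called at either day. Nor were Plxdc1, Lynx1 and Emp1.

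Kinases, phosphatases and signalling adaptors gave 9 of the 98 genes, of which 0 were called at day 2, 3 rose at day 6 (35.0% of all tested genes) and 0 fell (32.9%). Ptpro, a receptor tyrosine phosphatase (chromosome 6, 137252299 to 137464634), stood at 0.425, 0.835 and 1.01 CPM untreated, 4.86, 6.22 and 4.06 on day 2, 88.2, 111 and 124 on day 4 and 32.2, 83.3 and 46.1 on day 6. The day 4 mean was 143 times the untreated mean, the largest such ratio of the 98, and 2.00 times the day 6 mean, the smallest. It rose at day 6 (log2 fold change 6.13 ± 0.46, adjusted p = 5.41e-07, edgeR). Prkx, a cyclic AMP-dependent kinase, rose at day 6 as well, from 16.02, 15.7 and 19.0 CPM untreated to 31.3, 48.2 and 34.8 (log2 fold change 1.18 ± 0.15, adjusted p = 1.87e-05, edgeR). Traf5, an adaptor of TNF receptors, had adjusted p = 0.0139 at day 6 and 0.0876 without replicate 2. Rassf4, a RAS-associating protein, stood at 143, 171 and 212 CPM untreated, 326, 350.3 and 247 on day 2, 523, 541 and 711 on day 4 and 143, 362 and 183 on day 6, and Rasa4, a calcium-regulated GTPase-activating protein of RAS, at 24.2, 39.3 and 34.3 CPM untreated, 61.8, 49.97 and 25.7 on day 2, 111, 90.3 and 89.5 on day 4 and 21.3, 57.7 and 20.1 on day 6. In both, day 6 replicate 2 was above all untreated libraries and at least 1 other day 6 library was not, and neither gene was called. Fyn, a SRC family kinase, had means of 6.09, 7.31, 12.5 and 5.05 CPM and was not called at day 2 or day 6. The phosphatase Cdc14b and the arginine sensor subunit Castor2 were not called at those days either. Apba1, an adaptor of membrane trafficking, had covered 64.6% of the distance to its day 4 mean by day 2, with 109.7, 107 and 57.3 CPM at day 2 and 112, 96.7 and 144 at day 4, ranges that overlap.

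Calcium and ion channel genes were 8 of the 98, and 1 of them, the cation channel Trpv2, rose at day 6, where 35.0% of all tested genes rose. Trpv2 stood at 6.38, 6.68 and 8.48 CPM untreated, 8.05, 11.7 and 11.8 on day 2, 39.0, 45.3 and 47.0 on day 4 and 16.2, 30.9 and 17.0 on day 6, with all day 6 libraries above all untreated ones (log2 fold change 1.58 ± 0.25, adjusted p = 0.000124, edgeR). Itpr3, a calcium release channel of the endoplasmic reticulum, had 4.78, 11.1, 22.7 and 7.01 CPM in untreated, day 2, day 4 and day 6 cells, and Mcub, the inhibitory subunit of the mitochondrial calcium uniporter, had 7.71, 8.09, 26.1 and 8.22. Tmem109, Calhm2, Wfs1, Cacna1d and Fkbp1b were not called at day 2 or day 6 either.

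Secreted and modifying enzymes were 9 of the 98, of which 1 rose at day 2 (1.05% of all tested genes), 5 rose at day 6 (35.0%) and 1 fell (32.9%). Padi2, which turns arginine into citrulline in proteins, stood at 11.2, 9.05 and 12.6 CPM untreated, 34.6, 41.4 and 37.0 on day 2, 106, 141 and 183 on day 4 and 49.5, 62.0 and 41.97 on day 6. It was called on day 2 (log2 fold change 1.78 ± 0.22, adjusted p = 0.00275) as well as day 6 (log2 fold change 2.23 ± 0.22, adjusted p = 3.08e-06, edgeR), with no overlap with untreated at either day. Ace, the angiotensin-converting enzyme that also marks a class of monocytes, stood at 0.425, 1.11 and 2.01 CPM untreated, 2.58, 3.48 and 1.31 on day 2, 43.8, 75.7 and 79.6 on day 4 and 13.01, 42.9 and 21.7 on day 6. Its day 2 libraries overlapped the untreated ones and its day 6 libraries did not (log2 fold change 4.45 ± 0.59, adjusted p = 5.89e-05, edgeR). Pgap1, which remodels lipid anchors of membrane proteins, held 4 reads over the untreated libraries and stood at 21.02 ± 3.43 CPM at day 4 and 9.45 ± 2.88 at day 6 (SD, n = 3, adjusted p = 3.28e-06 at day 6, edgeR). Galnt10, which starts mucin-type sugar chains, rose at day 6 (log2 fold change 2.11 ± 0.30, adjusted p = 6.06e-05, edgeR), as did Cyp2ab1, a cytochrome P450 (log2 fold change 1.24 ± 0.35, adjusted p = 0.00719). Rnase2a, a ribonuclease of the eosinophil-associated family, stood at 8.93, 8.21 and 14.7 CPM untreated, 12.9, 12.4 and 9.96 on day 2, 21.8, 31.5 and 30.7 on day 4 and 2.13, 6.43 and 2.93 on day 6, and it fell at day 6 (log2 fold change -1.41 ± 0.35, adjusted p = 0.00337, edgeR). Its family members are near copies of each other, so its reads are uncertain. The peroxiredoxin Prdx4, the glycosyltransferase Eogt and Dse were not called at day 2 or day 6.

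Nuclear proteins were few. Of the 4, Zfp385a, a zinc finger protein that binds p53 and RNA, stood at 7.09, 7.93 and 7.18 CPM untreated, 30.4, 30.6 and 17.96 on day 2, 70.4, 67.1 and 77.4 on day 4 and 25.4, 61.1 and 20.7 on day 6. It rose on day 2 (log2 fold change 1.82 ± 0.39, adjusted p = 0.0495) as well as day 6 (log2 fold change 2.28 ± 0.39, adjusted p = 0.000316, edgeR). Ahr, the receptor for dioxins and tryptophan products, stood at 8.22, 5.43 and 8.05 CPM untreated, 7.44, 10.4 and 12.5 on day 2, 23.4, 27.3 and 31.6 on day 4 and 8.53, 13.98 and 13.5 on day 6 and rose at day 6 (log2 fold change 0.74 ± 0.25, adjusted p = 0.0183, edgeR), though without replicate 2 the adjusted p was 0.0565. Hivep3, a large zinc finger protein, and Stn1, a telomere protein, were not called. In a list of 101 transcription factors of myeloid cells, 24 passed the criteria against untreated at day 4, and of these Ahr was the single one of the 98 genes, Klf4 having been set aside by name. Over all genes 778 passed these criteria, and 98 of them are the genes described here.

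The other 9 genes had no role assigned, and 3 of them rose at day 6 (35.0% of all tested genes). The gene with identifier 665825 stood at 3.97, 8.35 and 8.19 CPM untreated, 15.04, 20.7 and 11.8 on day 2, 42.2, 48.7 and 51.4 on day 4 and 10.02, 29.9 and 18.4 on day 6 (log2 fold change 1.52 ± 0.38, adjusted p = 0.0039, edgeR). Zeb2os, an antisense RNA of the Zeb2 gene, stood at 6.38, 5.15 and 6.46 CPM untreated, 9.42, 13.5 and 9.70 on day 2, 21.3, 16.5 and 22.02 on day 4 and 6.398, 15.6 and 7.81 on day 6. Zeb2 itself did not share the pattern, with means of 489, 372, 412 and 193 CPM. No label says whether the counting used strand, so reads of both cannot be told apart. The long noncoding RNA Gm15987 rose at day 6 (log2 fold change 2.73 ± 0.65, adjusted p = 0.00253, edgeR). Niban2, BC035044, Zcchc24, Kbtbd11, AI504432 and Bex6 were not called, with day 4 means from 12.3 CPM for Bex6 to 179 for Niban2.

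How far a gene had come by day 2 varied. The day 2 mean stood at a median of 19.3% of the way from the untreated to the day 4 mean, from -11.6% for Nectin1 to 112% for Ccl24. After Ccl24 the largest shares were those of Apba1 (64.6%), BC035044 (51.7%), Gprc5c (51.2%) and Arl5c (50.6%). At the low end were Itgb7 (-3.58%), Iigp1 (-2.96%), Tmsb10 (-1.27%) and Ace (1.95%). At day 6 a median of 12.4% of that distance was left, from -62.9% for Sfrp1 to 49.6% for Ptpro. Without day 6 replicate 2 the median was 0.0973%, from -70.2% for Sfrp1 to 43.2% for Nrg1. Set against day 2, the day 6 mean was higher in 41 of the 98 genes and lower in 57 (28 and 70 without replicate 2), and no test is given because day 6 was chosen low.

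Within groups, a library that was high for 1 of the 98 genes was often high for the others. The median coefficient of variation was 24.4% in untreated libraries, 21.4% at day 2, 14.8% at day 4 and 45.3% at day 6, against 8.68%, 7.14%, 7.31% and 12.98% over tested genes of at least 10 CPM, a set that is not matched to the 98 on level. Untreated replicate 3 was the highest of its group in 68 of the 98 genes, day 2 replicate 2 in 65, day 4 replicate 3 in 70 and day 6 replicate 2 in 86. Over all tested genes these libraries were the highest of their group in 34.4%, 34.9%, 33.3% and 41.1%. As a percentage of the day 4 mean, the median over the 98 genes was 24.3% in day 6 replicate 1, 56.1% in replicate 2 and 29.1% in replicate 3. Replicate 2 was above 50% of the day 4 mean in 59 genes, replicate 1 in 1 and replicate 3 in 2. The same library held the lowest summed level of mature neutrophil genes of its group, and the part of this in the results was not tested.

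**Figure D4:**
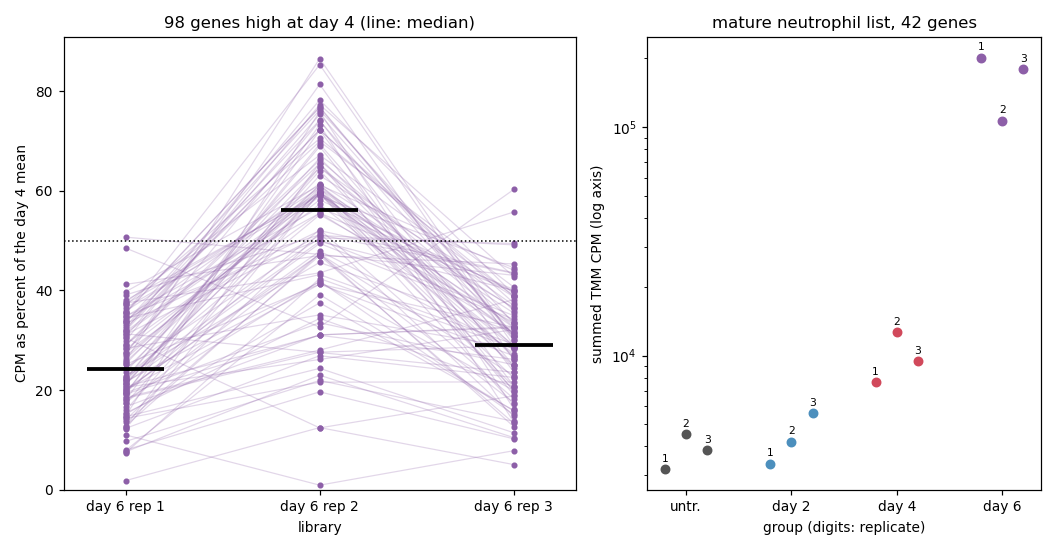
Level of each of the 98 genes in each day 6 library as a percentage of its day 4 mean (left, points joined by gene, with the median as a bar and 50% as a dotted line), and the summed CPM (log axis) of the 42 mature neutrophil genes in all 12 libraries (right). Replicate 2 has the highest median, 56.1%, and the lowest neutrophil sum of day 6, 106549 CPM.

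The gene lists that fit the tissue, which were put together with earlier results of these data known, placed few of the 98 genes. Of 47 monocyte and macrophage genes, 29 passed the criteria against untreated at day 4, and 4 of these (Ace, Emilin2, Pld4 and S100a4) are among the 98. Over all genes 778 passed these criteria, and 98 of them are the genes described here, a share near that of this list. Of the 45 tested in that list 2 rose and 0 fell at day 2, where 1.05% of all tested genes rose and 0.406% fell. At day 4, 31 rose and 1 fell, where 22.1% of all tested genes rose and 20.2% fell. At day 6, 35 rose and 4 fell (34 and 5 without day 6 replicate 2, edgeR), against 35.0% and 32.9% of all tested genes. For this list the median log2 fold change at day 6 was 3.10, against -0.00 over all tested genes. Its summed level lay between 9976 and 13240 CPM untreated, between 30470 and 37615 on day 4 and between 43015 and 45942 on day 6, so its summed level was not lower on day 6 than on day 4. Of 66 adhesion molecules 16 passed the criteria against untreated at day 4, and 4 of these are among the 98 (Itgb7, Pcdh18, Plxnb2 and Plxnd1). Of 80 signalling proteins 28 passed, and 4 of these are among the 98 (Lat2, Ptpro, Rasa4 and Rnd3). Whether these shares differ from the 98 of 778 over all genes was not tested. None of the 98 is in the lists of mature neutrophil, primary granule, stem and progenitor, mitosis or DNA replication genes, or in those of eosinophil, basophil and mast cell, B cell, T and NK cell, erythroid or stromal markers.

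Markers of other cells moved with the days as well. Of 12 eosinophil genes 10 were tested, 8 rose at day 4 (22.1% of all tested genes) and 5 rose at day 6 (35.0%, edgeR), and none was at 0 in all libraries. Their summed level lay between 95.7 and 118 CPM untreated, between 58.2 and 295 on day 2, between 139 and 1344 on day 4 and between 444 and 890.3 on day 6. Ccl24 and Rnase2a, whose families are linked to these cells, were not in the list, and the part of these cells in their values was not tested. B cell markers (2 of 10 tested) summed to 14.9 to 92.2 CPM over all libraries, with 1 lower at day 4 and at day 6. T and NK cell markers (4 of 14 tested) summed to 12.8 to 14.9 CPM untreated, 11.5 to 38.4 on day 2, 33.5 to 52.8 on day 4 and 64.4, 117 and 65.01 in day 6 replicates 1, 2 and 3, with 1 of the 4 higher at day 4 and 2 at day 6 (edgeR). Basophil and mast cell genes (7 of 14 tested) summed to 151 to 228 CPM untreated, 177 to 316 on day 2, 262 to 475.5 on day 4 and 529 to 823 on day 6, with 1 higher and 1 lower at day 4 and 3 higher and 2 lower at day 6 (edgeR). The part of these cells in the levels of the 98 genes was not tested. Stromal and endothelial markers (3 of 11 tested, with Col3a1 and Emcn at 0 in all libraries) summed to 176 to 285 CPM in untreated libraries and 9.96 to 14.9 at day 6.

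Some of the 98 genes are neighbours. Among tested genes in chromosome order, 3 adjacent pairs were both members, Calhm6 and Dse on chromosome 10, Plxdc1 and Arl5c on chromosome 11 with 2905 bases between them, and Ptpro and Eps8 on chromosome 6 with 12610 bases between them (GRCm38). Dse, an epimerase that makes dermatan sulfate, stood at 20.002, 39.6, 97.4 and 36.0 CPM, and its neighbour Calhm6 at 3.67, 5.82, 24.5 and 10.2. Eps8, which caps and bundles actin, was at 6.38, 8.06, 30.1 and 10.6 CPM, without the call at day 6 that Ptpro had. The median gene length was 3021 bases over the 98 genes and 2769 over all tested genes.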

How the data were processed

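RNA sequencing covered 12 libraries of AML246 cells sorted by GFP, 3 in each of 4 groups. The deposited tables hold raw read counts per Entrez gene with a gene length, made by the authors without normalization. The submitters' processing notes name the mm10 build, edgeR 3.8.2, limma 3.22.0, featureCounts and CASAVA 1.8.2, and the aligner is not given in the sources used here. Identifiers were named from RefSeq GRCm38.p6 (25275) and GENCODE (18), and 1886 stayed unnamed (0.487% to 1.06% of counts). Totals were 4918920 to 7356166 counts per library, so 3 counts are about 0.466 CPM.

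In R 4.3.3, edgeR 4.0.16 (filterByExpr, TMM, glmQLFit with robust dispersion, group as the single term, 8 residual degrees of freedom) gave two-sided quasi-likelihood tests of day 2 and day 6 against untreated over 12057 genes, with calls made where the Benjamini-Hochberg adjusted p was under 0.05. Values after ± are SE for log2 fold changes and SD for CPM, with n = 3 per group. TMM factors were 1.02 to 1.15, and 0.737, 0.847 and 0.749 at day 6. Alternatives were DESeq2 1.42.0, limma 3.58.1 voom, 3 other scalings, 2 other filters, other thresholds, fits of 2 groups, a replicate block and each library left out. The procedure was tested on simulated data.

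The members, the lists and the roles were chosen with earlier results of these data known, and roles were assigned after the members were known. Genes are named where they were among the 25 most abundant per kb, the 20 with the largest ratio, on a list, called (up to 15 a direction), nearest a threshold, or among the 8 fastest or 8 slowest at day 2. Remaining members are named for their role, except 1 that is counted but not reported here by name.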

Additional observations from a re-analysis of the deposited data

Results flagged for a closer look

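In Arl5c and Ccl24 the days went opposite ways, with all day 2 libraries above and all day 6 libraries below the untreated libraries. The log2 fold change of Arl5c was 0.77 at day 2 and -0.61 at day 6, and that of Ccl24 was 1.53 and -2.40. The day 2 change of Ccl24 was not called, and the day 2 call of Arl5c was lost under 7 of the 12 omissions of a library. The difference between the days was not tested, and both days use the same untreated libraries.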

How the results depend on the processing

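The number of genes that met the criteria was 98, and it was 97 with RLE scaling, 111 with upper-quartile scaling and 151 with library totals, of which 97, 89 and 87 were among the 98. It was 195 with a ratio of 1.5 and 23 with a ratio of 3, and it ranged from 80 to 187 when 1 library was left out, 187 being without day 6 replicate 2. Genes higher at day 2 numbered 9, and 28 with DESeq2, 18 in a fit of only untreated and day 2 libraries and 3 to 32 with 1 library left out. Genes lower at day 2 numbered 0 under every alternative run. Genes lower at day 6 numbered 5, and 8 with upper-quartile scaling, 18 with library totals and 5 to 19 with 1 library left out. Genes higher at day 6 (37) ranged from 30 to 40 with 1 library left out. Where these counts have no share of all tested genes, whether a shift was particular to the 98 genes was not tested. Without day 6 replicate 2, an alternative added for the following values after seeing the data, the median log2 fold change at day 6 was 0.012 in place of 0.37, the genes with all day 6 libraries above untreated numbered 31 (30 with all libraries), those with all below 30 (5), those above and below 0 numbered 49 and 49 (65 and 33), the median share of the rise left was 0.0973% (12.4%), the genes above and below their day 2 mean numbered 28 and 70 (41 and 57), and the median day 6 mean was 13.3 CPM (18.8). The cause of these shifts was not tested. With the replicate number as a block, 10 genes were higher at day 2 and 34 higher and 5 lower at day 6. No pairing by number was seen. Residuals of libraries that share a number correlated by 0.006 on average over 18 pairs, from -0.17 to 0.29. Those of libraries with other numbers correlated by -0.003 over 36 pairs, from -0.29 to 0.31. With residuals taken from means of 3 libraries, these values cannot exclude pairing. Over the 51 single gene results and these alternatives, 947 values kept their call, 121 lost it and 0 changed direction. Depth limits genes of few reads in untreated libraries, such as Clec10a.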

Other observations

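The mirrored criteria were met by 16 genes. They asked for untreated and day 6 means each at least 10 CPM and at least 2 times the day 4 mean, with no overlap. The criteria for a high day 4 level were met by 100 before any gene was set aside by name. Those set a minimum for the day 4 mean alone, so the counts are not on equal terms. Among the 16, Tinagl1 had means of 173 CPM untreated, 60.04 at day 4 and 290.7 at day 6, and Nt5e, an enzyme that makes adenosine, had 89.0, 37.8 and 137. They were chosen by these values and carry no test.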
